A study of Mus musculus with 10 samples.

Results

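The genes of NF-kB subunits and of the inhibitors that NF-kB switches on were read on 10 Affymetrix arrays of cultured mouse cells, 1 array per condition. The members were the probe sets annotated with the single symbol Nfkbia, Nfkbie, Nfkbiz, Bcl3, Nfkb1, Nfkb2, Relb, Tnfaip3, Traf1 or Birc3. They came to 20 probe sets of 9 genes, out of 45101 probe sets and 18193 named genes in all, and Nfkb1 was not analysed here. Of these arrays, 6 held mouse embryonic fibroblasts (MEFs), isolated at embryonic day 9.5 and self-immortalised in culture: Med23 knockout (KO) MEFs and wild-type (WT) MEFs, each at 0 min (no serum), 30 min and 90 min of serum stimulation. The labels tell of 1 line of each genotype and give no more on how the lines were derived. Another 4 arrays held 10T1/2 cells, a mouse embryonic mesenchymal line. These were cells with MAL overexpression and Med23 knockdown together, with MAL alone, with the knockdown alone, and cells labelled as control. All of these cells were kept in medium with fetal bovine serum before any treatment, and no time in serum is labelled for the 10T1/2 cells. Med23 is a subunit of Mediator, which connects transcription factors to RNA polymerase II, and MAL is an actin-regulated coactivator of the transcription factor SRF.

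NF-kB is a family of dimeric transcription factors held in the cytoplasm by inhibitors of the IkB family. Signals from cytokine receptors, Toll-like receptors and growth factors reach the IkB kinase, which marks IkB for destruction, and the freed dimers enter the nucleus. Many of the genes they then switch on encode their own inhibitors, so that the response ends soon after it began. In fibroblasts the pathway is best known for switching on chemokine and survival genes.

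All levels below are the authors' log2 expression values, so that a difference of 1 is a doubling. A level is compared only with other levels of the same probe set, since probe sets differ in how brightly they read. The median level of an array lay between 3.86 and 3.93 for MEFs and between 3.64 and 3.70 for 10T1/2 cells. A level below the median of its array is taken as open, and a fold against such levels is given as a lower bound, with each of them raised to the array median. Comparisons were fitted with limma as additive models over pairs of arrays that differ in 1 factor. A coefficient is the fitted log2 difference, and a gene passed, rose or fell where its p adjusted over all tested genes (Benjamini-Hochberg) was under 0.05. With 1 array per condition, these p-values rest on the residual of the fit and do not cover the spread between cultures. Med23 was lower in KO MEFs by a coefficient of -3.97 (SE 0.13, n = 3 pairs, adjusted p = 9.27e-06) or at least 9.54-fold, and its knockdown coefficient in 10T1/2 cells of -1.47 (SE 0.22, n = 2 pairs) did not pass the test (adjusted p = 0.0689). Of 10 fibroblast marker genes, 8 were above the median on every KO array and 8 on every WT array, all 10 were above it on the 10T1/2 arrays, and Thy1 was below it on every MEF array. Of 10 macrophage marker genes, Ptprc, Adgre1, Itgam, Tyrobp and Aif1 were below the median on all 10 arrays, as were 3 of 5 endothelial markers (Pecam1, Cdh5 and Tek) and 3 of 4 epithelial markers (Krt8, Krt18 and Cdh1). The macrophage markers Cd14 (6.13 to 9.28) and Csf1r (4.26 to 4.95) were above the median on all 10 arrays. Fcer1g was above it on every MEF array, Cd68 on every WT array and Lyz2 on every 10T1/2 array. The endothelial marker Emcn rose in KO MEFs, with 5.38, 4.95 and 5.27 in KO MEFs at 0, 30 and 90 min and 3.10, 2.73 and 2.92 in WT MEFs, which is at least 2.45-fold (adjusted p = 5.65e-05). Kdr was near the median and Epcam above it throughout, and neither passed in MEFs. The mean log2 level of 4 lymphocyte markers was between 3.67 and 4.05 on every array. Every one of the 9 member genes entered the fit of the MEFs and 8 of them that of the 10T1/2 cells, where Traf1 was below the median on all 4 arrays.

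**Figure D1:**
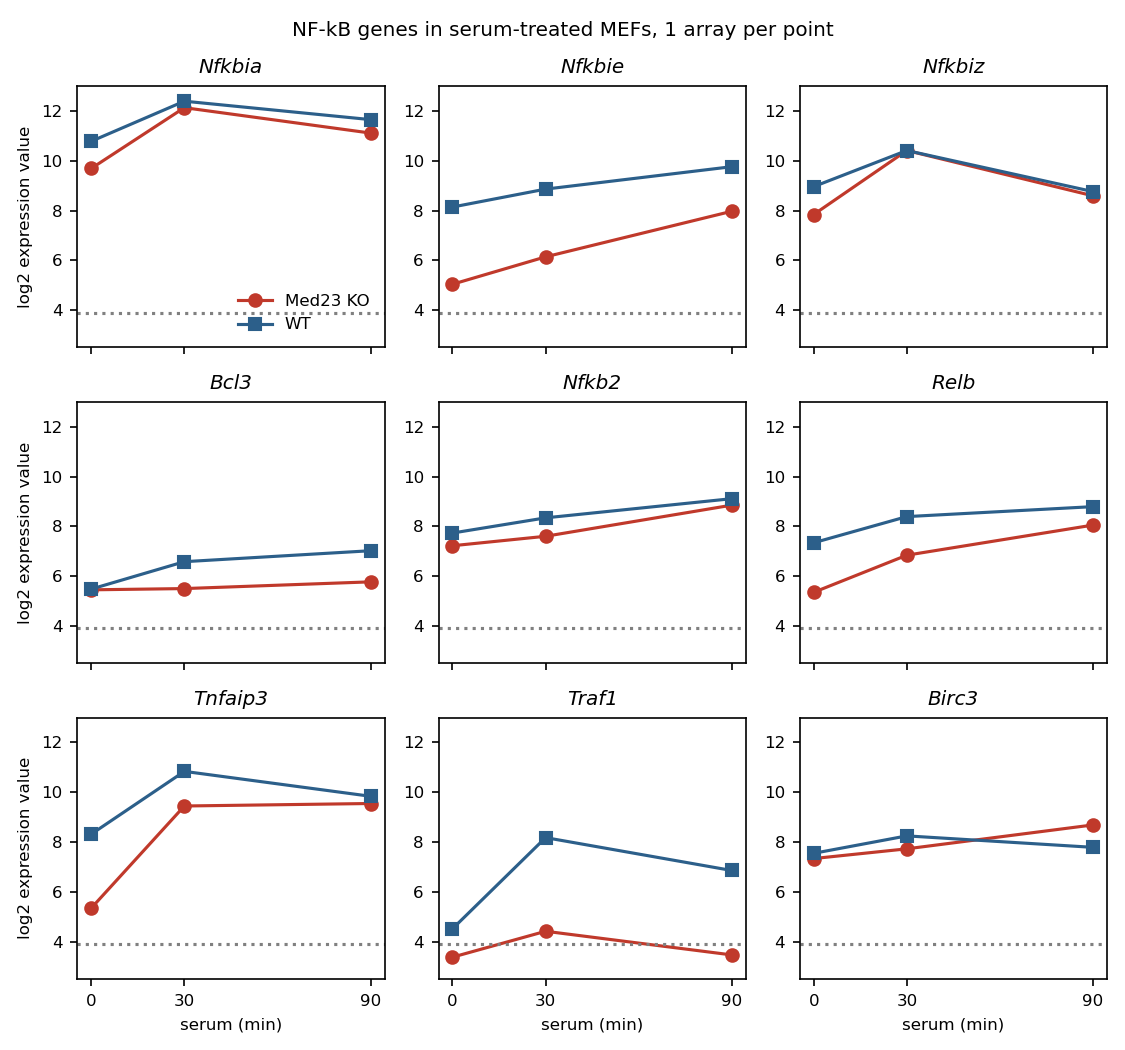
Log2 expression value (vertical axis) of each of the 9 member genes against minutes of serum (horizontal axis) in Med23 KO MEFs (circles) and WT MEFs (squares), with 1 array per point and the dotted line at the mean of the array medians. Nfkbia, Nfkbiz and Traf1 were highest at 30 min in both genotypes, and Nfkbie, Bcl3, Nfkb2 and Relb were highest at 90 min in both.

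The serum series asked how the genes moved within the first 30 and 90 min of serum, over both genotypes. At 30 min Nfkbia rose 4.07-fold, and with 1 probe set per gene it was the 1 member of 9 that passed the test, where 0.235% of the 11933 tested genes rose. At 90 min 5 of 9 members rose, where 4.56% of all tested genes did: Nfkbia, Nfkbie, Nfkb2, Relb and Tnfaip3, by 2.21-fold to 7.26-fold. No member fell at either time, where 0.0168% of all tested genes fell at 30 min and 8.95% at 90 min. The members' median coefficient was 1.27 at 30 min, against 0.01 over all tested genes, and 1.22 at 90 min, against -0.11.

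Among the IkB genes, Nfkbia was highest at 30 min and Nfkbie at 90 min. Nfkbia encodes IkB alpha, the inhibitor that is rebuilt fastest after NF-kB is freed, and its levels at 0, 30 and 90 min were 9.69, 12.13 and 11.11 in KO MEFs and 10.78, 12.39 and 11.65 in WT MEFs. Both 30 min arrays were above every other MEF array, and both 90 min arrays were above both 0 min arrays. The coefficient was 2.02 at 30 min (SE 0.22, n = 2 pairs, limma, adjusted p = 0.0431) and 1.15 at 90 min (SE 0.22, 2.21-fold, adjusted p = 0.0261). Nfkbie encodes IkB epsilon, a slower inhibitor, and it read 5.04, 6.14 and 7.97 in KO MEFs and 8.14, 8.86 and 9.76 in WT MEFs. It climbed at both steps in both genotypes, and its coefficient was 0.91 at 30 min (SE 0.31, adjusted p = 0.555) and 2.27 at 90 min (SE 0.31, 4.84-fold, adjusted p = 0.0108).

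Nfkbiz and Bcl3 encode atypical IkB proteins that act in the nucleus as cofactors of NF-kB dimers. Nfkbiz read 7.84, 10.41 and 8.59 in KO MEFs and 8.96, 10.41 and 8.76 in WT MEFs, a peak at 30 min that was almost gone at 90 min. The 30 min arrays did not overlap with the rest, yet the coefficient of 2.01 (SE 0.28, 4.03-fold) did not pass the test (adjusted p = 0.0876), and at 90 min it was 0.27 (SE 0.28, adjusted p = 0.548). Bcl3 read 5.45, 5.50 and 5.77 in KO MEFs and 5.48, 6.58 and 7.02 in WT MEFs. Its levels spanned a wider range in WT than in KO MEFs, and neither coefficient passed, with 0.57 at 30 min (SE 0.3, adjusted p = 0.729) and 0.93 at 90 min (SE 0.3, adjusted p = 0.0967).

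Of the subunits, Nfkb2 encodes the precursor of a DNA-binding subunit of the non-canonical branch of the pathway, and it read 7.22, 7.60 and 8.85 in KO MEFs and 7.73, 8.34 and 9.11 in WT MEFs. Relb, its usual partner, read 5.35, 6.84 and 8.05 in KO MEFs and 7.34, 8.39 and 8.79 in WT MEFs. Both genes were highest at 90 min in both genotypes. Their 90 min coefficients were 1.5 for Nfkb2 (SE 0.18, 2.84-fold, adjusted p = 0.00772) and 2.08 for Relb (SE 0.29, 4.21-fold, adjusted p = 0.012), while at 30 min 0.49 for Nfkb2 (SE 0.18) and 1.27 for Relb (SE 0.29, adjusted p = 0.299) did not pass.

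Tnfaip3, Traf1 and Birc3 act at the receptor complexes upstream of the kinase. Tnfaip3 encodes a ubiquitin-editing enzyme that takes the signal down at these complexes, and it read 5.35, 9.45 and 9.55 in KO MEFs and 8.32, 10.84 and 9.84 in WT MEFs. Its coefficient of 3.31 at 30 min (SE 0.56, 9.92-fold) was the highest of the 9 members but did not pass (adjusted p = 0.137), and that of 2.86 at 90 min did (SE 0.56, 7.26-fold, adjusted p = 0.0264). Traf1, an adaptor of TNF receptors, read 3.38, 4.42 and 3.47 in KO MEFs, below the array median at 0 and 90 min, and 4.52, 8.18 and 6.86 in WT MEFs. Birc3, a ubiquitin ligase of the same complexes, read 7.34, 7.73 and 8.69 in KO MEFs and 7.55, 8.25 and 7.79 in WT MEFs. Neither passed: the coefficients at 30 and 90 min were 2.35 (SE 0.59, adjusted p = 0.347) and 1.22 (SE 0.59, adjusted p = 0.218) for Traf1, and 0.54 (SE 0.33) and 0.79 (SE 0.33, adjusted p = 0.168) for Birc3.

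**Figure D2:**
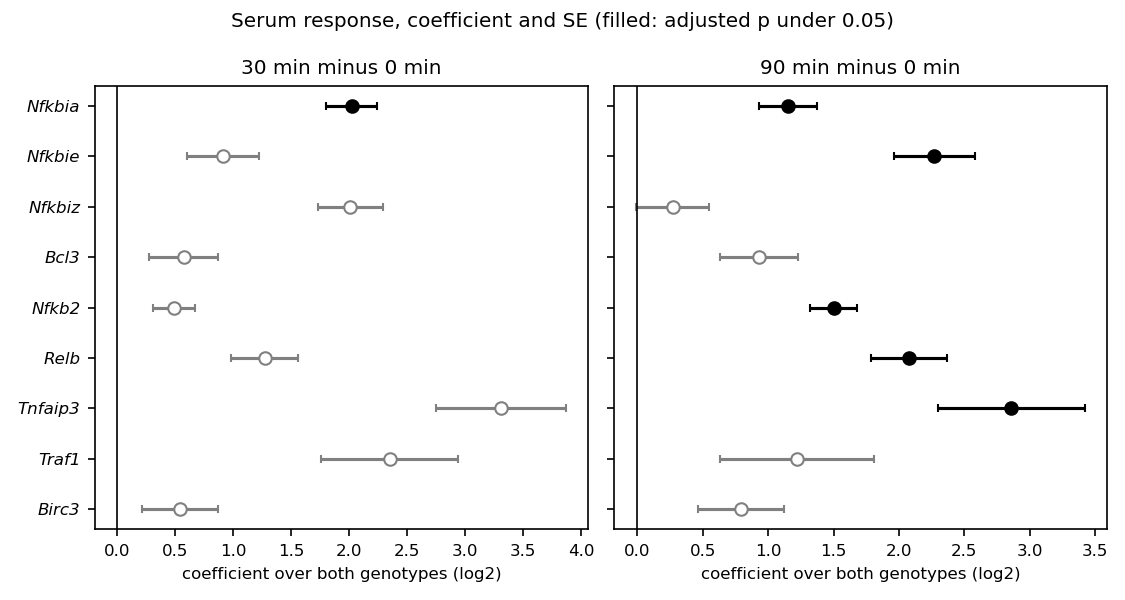
Coefficient of serum over both genotypes on the log2 scale (horizontal axis, with its SE as bars) for the 9 member genes at 30 min (left) and 90 min (right), filled where the adjusted p was under 0.05. The filled points are Nfkbia alone at 30 min, with 2.02, and Nfkbia, Nfkbie, Nfkb2, Relb and Tnfaip3 at 90 min, from 1.15 to 2.86.

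By direction alone, all 9 members were above their 0 min level at 30 min in both genotypes, where 32.0% of all tested genes were. A gain of at least 1 at 30 min in both genotypes was seen for 5 of 9 members, namely Nfkbia, Nfkbiz, Relb, Tnfaip3 and Traf1, and for 0.922% of all tested genes. The KO gain of Traf1 started below the array median and was 0.51 with that level raised to it. The highest level was at 30 min in both genotypes for Nfkbia, Nfkbiz and Traf1, against 16.1% of all tested genes, and at 90 min in both for Nfkbie, Bcl3, Nfkb2 and Relb, against 16.0%. Without the 30 min arrays all 5 calls at 90 min were lost at the same coefficients, with adjusted p of 0.0758 for Nfkbia, 0.066 for Nfkbie, 0.103 for Tnfaip3, 0.0518 for Nfkb2 and 0.0667 for Relb, and 18 genes in all passed in place of 1612. Without the 90 min arrays the adjusted p of Nfkbia at 30 min was 0.225, and it was 0.136 for the mean of its 5 probe sets and 0.0562 with no filter on low values.

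The promoters of the 4 members that rose at 90 min and have a window in the RefSeq table used here are printed, since they are textbook targets of NF-kB. Each window holds the 250 bases before the annotated start of the gene and the first 50 bases from it on, on build GRCm38.p6 of the mouse genome, 5′ to 3′ on the strand of the gene. Capitals mark matches to the kappa-B consensus, the general sequence that NF-kB dimers bind. The windows are Nfkbia at chr12:55492598-55492897 on the minus strand, Tnfaip3 at chr10:19015361-19015660 on the minus strand, Nfkb2 at chr19:46304487-46304786 on the plus strand (window 1 of 3) and Nfkbie at chr17:45555450-45555749 on the plus strand.
Nfkbia: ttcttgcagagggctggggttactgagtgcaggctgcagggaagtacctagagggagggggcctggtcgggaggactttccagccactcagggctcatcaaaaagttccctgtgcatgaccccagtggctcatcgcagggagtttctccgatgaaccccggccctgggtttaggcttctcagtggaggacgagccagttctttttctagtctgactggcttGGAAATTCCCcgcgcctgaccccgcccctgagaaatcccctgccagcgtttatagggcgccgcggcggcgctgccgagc
Tnfaip3: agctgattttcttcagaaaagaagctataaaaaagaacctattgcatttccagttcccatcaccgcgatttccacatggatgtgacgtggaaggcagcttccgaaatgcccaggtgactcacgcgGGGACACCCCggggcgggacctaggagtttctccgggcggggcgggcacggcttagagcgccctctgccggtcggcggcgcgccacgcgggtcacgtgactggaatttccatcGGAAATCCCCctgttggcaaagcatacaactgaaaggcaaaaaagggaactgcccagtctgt
Nfkb2: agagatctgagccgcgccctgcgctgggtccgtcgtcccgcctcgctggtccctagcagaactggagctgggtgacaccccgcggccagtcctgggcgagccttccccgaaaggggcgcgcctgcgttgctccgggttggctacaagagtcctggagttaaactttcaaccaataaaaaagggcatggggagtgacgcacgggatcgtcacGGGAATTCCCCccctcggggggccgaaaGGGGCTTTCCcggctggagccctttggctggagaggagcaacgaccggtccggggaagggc
Nfkbie: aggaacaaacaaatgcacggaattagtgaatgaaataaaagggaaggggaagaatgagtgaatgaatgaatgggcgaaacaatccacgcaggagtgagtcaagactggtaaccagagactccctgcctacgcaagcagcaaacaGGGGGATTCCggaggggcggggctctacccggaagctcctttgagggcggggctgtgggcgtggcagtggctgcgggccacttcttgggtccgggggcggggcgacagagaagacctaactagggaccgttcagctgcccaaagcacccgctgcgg

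The table held 10 windows for 7 of the 10 members. A kappa-B consensus was found on either strand in a window of 5 of these 7 members, the 4 above and Bcl3, and in 4.51% of all 32851 windows of the same length. A member with several windows counts where any of them matched, so counts of members and shares of windows are unlike measures. Window 2 of Tnfaip3, which is not printed, held no match. The match of Nfkbia began 29 bases before the start, and that of Nfkbie 106 bases before it. Tnfaip3 held 2 matches, and Nfkb2 held 3 in the window printed, of which the first and the second overlap by all but 1 base. TGANTCA, the general site of AP-1 factors, was matched in Nfkbie, Tnfaip3 and Nfkb2 (its window 2), against 7.81% of all windows, and a CArG box, the general site of SRF, in 0 members, against 1.63%. A match is a description of these letters, not a measured binding site.

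The comparison of KO with WT MEFs asked which levels went with the absence of Med23. With 1 line of each genotype, the absence of Med23 and other differences between the lines cannot be told apart. In KO MEFs 7 of 9 members fell and 0 rose, where 20.8% of all tested genes fell and 21.2% rose. Nfkbie fell 5.80-fold and Traf1 at least 5.44-fold, Tnfaip3 and Relb between 2.69-fold and 2.93-fold, and Bcl3, Nfkbia and Nfkb2 between 1.42-fold and 1.73-fold. Nfkbiz and Birc3 did not pass. The members' median coefficient was -0.79, against -0.02 over all tested genes. With RNA from whole cultures, fewer cells of a type and less RNA per cell cannot be told apart.

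**Figure D3:**
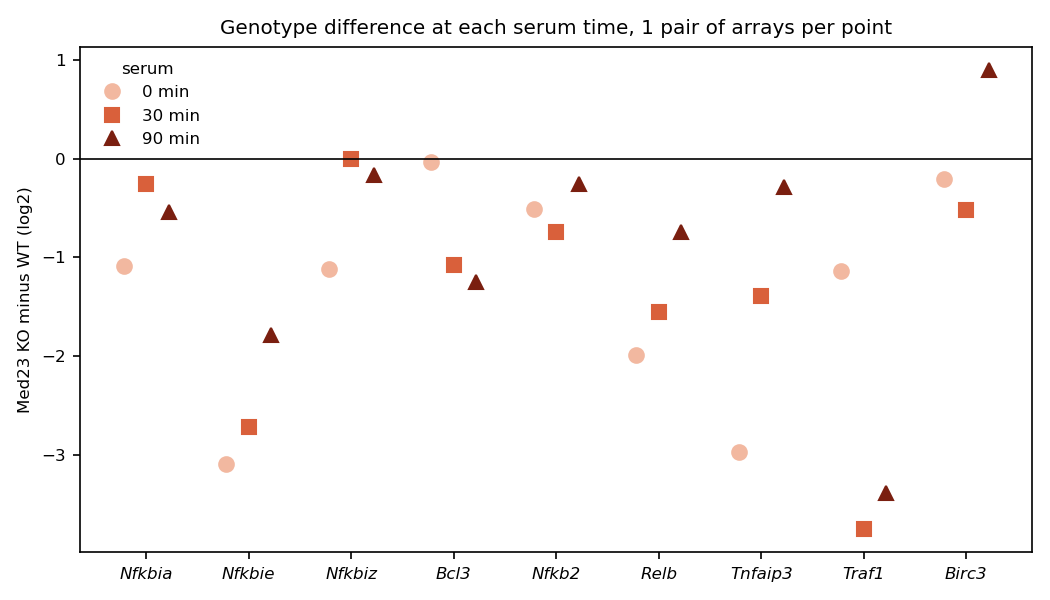
Level in Med23 KO MEFs minus level in WT MEFs (log2, vertical axis) for the 9 member genes at 0 min (circles), 30 min (squares) and 90 min of serum (triangles), 1 pair of arrays per point. Nfkbie, Relb and Tnfaip3 stood closest to 0 at 90 min, while Traf1 stood lowest at 30 and 90 min and Birc3 was above 0 at 90 min alone.

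Nfkbie had the lowest adjusted p of the members, with a coefficient of -2.54 (SE 0.25, n = 3 pairs, adjusted p = 0.000637). Its highest KO level, 7.97 after 90 min of serum, was below its lowest WT level, 8.14 without serum. Its second probe set, 1431843_a_at, read 4.15, 5.16 and 7.28 in KO MEFs and 7.10, 8.22 and 8.76 in WT MEFs, so that only its KO level at 90 min was above a WT level, that at 0 min. Nfkbie stayed past the threshold in 9 of 10 alternatives and stood at an adjusted p of 0.0508 with no term for serum time.

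Traf1 had a coefficient of -2.76 (SE 0.48, adjusted p = 0.00569), and all 3 KO levels were below all 3 WT levels. Such a separation downward was seen in 2 of 9 members, Nfkbie and Traf1, and in 20.7% of all tested genes. The second probe set of Traf1, 1423602_at, read 3.20, 3.21 and 3.87 in KO MEFs, below the median of each array, and 4.43, 5.13 and 5.82 in WT MEFs. The KO levels of Traf1 thus lay at the low end of the arrays at 0 and 90 min, so its fold is a lower bound.

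Relb had a coefficient of -1.43 (SE 0.24, 2.69-fold, adjusted p = 0.00499) and Tnfaip3 one of -1.55 (SE 0.46, 2.93-fold, adjusted p = 0.0369). For both genes the KO level was lower at each time but the ranges of the genotypes overlapped, since the KO level at 90 min was above the WT level at 0 min. The smaller coefficients were -0.79 for Bcl3 (SE 0.25, adjusted p = 0.045), -0.63 for Nfkbia (SE 0.18, adjusted p = 0.0346) and -0.50 for Nfkb2 (SE 0.14, adjusted p = 0.0322), each lower in 3 of 3 pairs on the probe set used for the gene. For Nfkbia 3 of its 5 probe sets were higher in KO than in WT MEFs at 30 min, by 0.08 to 0.57. Nfkbiz had -0.43 (SE 0.23, adjusted p = 0.187) and Birc3 0.06 (SE 0.27, adjusted p = 0.888).

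Several of these calls were lost when 1 serum time was left out, which also leaves 4 arrays and 1 residual degree of freedom. Without the 30 min arrays Nfkbie alone passed, and 2398 genes did in place of 5018. The coefficients there were -0.81 for Nfkbia (adjusted p = 0.0653), -1.63 for Tnfaip3 (0.158), -1.36 for Relb (0.0599), -2.27 for Traf1 (0.0589), -0.64 for Bcl3 (0.244) and -0.38 for Nfkb2 (0.198), each in the direction given above. Without the 0 min arrays they were -0.40 for Nfkbia (0.206), -0.84 for Tnfaip3 (0.107) and -0.50 for Nfkb2 (0.158). Without the 90 min arrays the calls of Nfkbia (-0.68, adjusted p = 0.103), Bcl3 (-0.56, 0.214) and Traf1 (-2.45, 0.065) were lost, so that Nfkbia lost its call whichever time was left out.

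Of the macrophage marker list, the summed log2 level ran from 36.2 to 37.6 on the KO arrays and from 40.3 to 42.0 on the WT arrays. Its members Cd14 and Cd68 fell in KO MEFs, with coefficients of -2.68 and -1.08 (-0.34 for Cd68 with its KO levels raised to the array median), while 6 of its 10 genes were below the median on every KO and every WT array, among them Ptprc, which marks all white blood cells. Of 9 tested fibroblast markers 4 fell and 1 rose, and the mean level of all 10 was at most 10.41 on the KO arrays and at most 10.50 on the WT arrays. These close means hide shifts in both directions. Col1a2 rose by a coefficient of 3.89, while S100a4 (-1.94), Pdgfrb (-1.39), Fn1 (-0.85) and Pdgfra (-0.62) fell. The part of these markers in the members' results was not tested.

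The difference between the genotypes varied with serum time, given here as values since 1 array per condition leaves no spread to test it. Over the 9 members the median of KO minus WT stood at -1.12 at 0 min, -1.08 after 30 min and -0.54 after 90 min of serum. A level lower by at least 1 in KO MEFs was seen in 6 of 9 members at 0 min, in 5 at 30 min and in 3 at 90 min, against 8.71%, 9.52% and 8.41% of all tested genes. The 6 at 0 min include Traf1, whose difference there was -0.61 with its KO level raised to the array median, which makes the members' median -1.09. Tnfaip3 stood at -2.97 at 0 min, -1.39 at 30 min and -0.29 at 90 min, Relb at -1.99, -1.55 and -0.74, and Nfkbie at -3.10, -2.72 and -1.79. These KO levels thus came nearer to WT with serum, and that of Nfkbiz reached it at 30 min, with -1.12, 0.00 and -0.17.

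Put as a response to serum, the gain of Tnfaip3 over 90 min was 4.20 in KO MEFs and 1.52 in WT MEFs, that of Nfkbie 2.93 and 1.62, that of Relb 2.70 and 1.45, and that of Birc3 1.35 and 0.24. A gain larger in KO MEFs by at least 1 was seen in these 4 of 9 members and in 3.34% of all tested genes. In the other direction, the gain of Bcl3 over 90 min was 0.32 in KO MEFs and 1.54 in WT MEFs, where 3.10% of all tested genes were lower by at least 1, and at 30 min it was 0.05 and 1.10. The KO gain of Traf1 over 90 min is open, since its KO levels at 0 and 90 min were both below the array median, while its WT gain was 2.34. At 30 min Traf1 had gained at least 0.51 in KO MEFs and 3.66 in WT MEFs.

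The probe sets of a gene agreed in part. All 5 of Nfkbia had negative KO coefficients, from -0.69 to -0.27, and 1 of the 5 passed when each probe set was tested on its own. With serum, 1438157_s_at alone of the 5 passed at 30 min and at 90 min. The adjusted p of the others (limma over all probe sets) ran from 0.0738 to 0.281 at 30 min and from 0.0753 to 0.0992 at 90 min. Of the 5, 1420088_at was highest at 90 min in WT MEFs, with 11.54 against 11.07 at 30 min, and the others were highest at 30 min in both genotypes. Both probe sets of Nfkbie, of Tnfaip3 and of Traf1 passed as lower in KO MEFs. For Traf1, 1423602_at entered the test through its WT levels alone, so the size of its KO difference is a lower bound. With its KO levels raised to the array median, KO minus WT came to -0.52, -1.27 and -1.92, in order of serum time. In WT MEFs the probe sets of Traf1 differed in their course, since 1423602_at, given above, was highest at 90 min and the other at 30 min. The KO course of 1423602_at is open, with every KO level below the array median. With levels raised to it, its gain over 90 min was -0.01 in KO MEFs and 1.39 in WT MEFs. The second probe set of Nfkb2, 1429128_x_at, had a KO coefficient of -0.50 that did not pass (adjusted p = 0.0838). The probe sets of Nfkbiz differed in direction: its probe sets 1417483_at and 1448728_a_at had KO coefficients of -0.43 and -0.36 and did not pass, while 1457404_at read 6.17, 7.95 and 6.96 in KO MEFs, against 5.63, 7.05 and 6.14 in WT MEFs, and was higher by 0.75 (SE 0.14, limma over all probe sets, adjusted p = 0.00791). All 3 peaked at 30 min in both genotypes, and 1457404_at alone of them passed there (1.6, SE 0.17, limma over all probe sets, adjusted p = 0.0372). The second probe set of Birc3, 1425223_at, was below the median on all 10 arrays.

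Other genes of the pathway were read from lists. Their counts in KO MEFs stand beside the 20.8% of all tested genes that fell and the 21.2% that rose. Of 20 tested receptor and adaptor genes, 9 fell and 2 rose in KO MEFs. The KO levels of the TNF receptor family genes Tnfrsf1b (-4.34, adjusted p = 1.38e-05) and Ltbr (-4.28, adjusted p = 9.89e-06) were below the array median at 2 and at 3 of the 3 times, so they fell at least 17.9-fold and at least 16.7-fold. They were followed by Tnfrsf12a (-2.97, adjusted p = 0.00792) and the Toll-like receptor gene Tlr2 (-1.81, adjusted p = 0.000366). Ltbr encodes the lymphotoxin receptor, which feeds the branch of Nfkb2 and Relb. Of 11 genes of the IkB kinase and the kinases above it, 2 fell and 2 rose, with Map3k8 at -1.91 (at least 3.32-fold) and Tab1 at -0.88 lower and Ikbke at 1.04 and Tab2 at 0.63 higher. Of 3 other Rel and IkB genes, Rela, the main activating subunit, fell by 0.44 on the log2 scale (adjusted p = 0.0333). Of 10 other feedback regulators, 3 fell and 0 rose: Zc3h12a (-1.65), which encodes an RNase that destroys cytokine mRNAs, Tnip1 (-1.18), a partner of the Tnfaip3 protein, and Otud7b (-1.05), a deubiquitinase.

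Of 25 tested NF-kB target genes outside the members, 16 fell and 1 rose in KO MEFs, with a median coefficient of -1.32, or -1.19 with levels below the array median raised to it. The chemokine gene Cxcl5 fell at least 112-fold and Lcn2, which encodes a siderophore-binding protein, at least 48.7-fold, both with every KO level below the array median. The chemokine gene Cxcl10 fell at least 8.82-fold, with its KO levels at 0 and 30 min below the median. The chemokine gene Cxcl1 had a coefficient of -4.15 with all levels above it, and the adjusted p of these 4 genes ran from 3.19e-06 to 0.0102. Without the 30 min arrays 9 of 23 target genes and 5 of 19 receptor and adaptor genes fell, and with no term for serum time 7 of 25 and 5 of 20. Of the genes named from the lists, Map3k8, Tab2, Rela and Otud7b no longer passed without the 0 min arrays (adjusted p 0.0582 to 0.141). These 4 and Tnfrsf12a, Tab1 and Cxcl10 no longer passed without the 30 min arrays (0.0523 to 0.196), nor Cxcl1 and Cxcl10 without the 90 min arrays (0.066 and 0.0958). The lists were chosen with results of these arrays known and are not independent evidence of a direction.

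With serum, most calls in the same lists came at 90 min. At 30 min the feedback regulator Zfp36, whose protein marks cytokine mRNAs for decay, rose by a coefficient of 5.07 (adjusted p = 0.00333) and the target Il6 at least 3.94-fold (adjusted p = 0.0471), and no other listed gene passed. At 90 min 8 of 25 target genes rose and 0 fell, where 4.56% of all tested genes rose and 8.95% fell. They included Lif (5.57), the chemokine gene Ccl2 (4.62) and Ptgs2 (3.94), which encodes the inducible cyclooxygenase, and Il6 rose at least 21.0-fold from 0 min levels below the array median. Of 20 receptor and adaptor genes 4 rose and 2 fell, among them Tnfrsf12a (3.33) and the Toll-like receptor gene Tlr4 (-1.33), of 11 kinase genes 2 rose and 1 fell, and of 10 feedback regulators 3 rose and 0 fell, among them Zc3h12a (1.72). All 3 other Rel and IkB genes rose, with 2.56 for Rel, 1.08 for Nfkbib and 0.79 for Rela. Without the 30 min arrays 2 of 23 target genes, Lif and Il6 (adjusted p = 0.0354 each), and 0 of 3 Rel and IkB genes rose at 90 min, no gene of the other lists passed there, and Il6 did not pass at 30 min without the 90 min arrays (adjusted p = 0.0591).

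The genes with the most similar courses were sought for 3 members over the 6 MEF arrays among 5301 genes that varied by at least 1. Nfkbia ran closest to Ier2 (Pearson r = 0.981), Egr2 (0.978), Junb (0.973), Itprip (0.973) and Ccnl1 (0.96). Tnfaip3 ran closest to Klhl21 (0.987), Egr3 (0.987), Tgif2 (0.984), Epha2 (0.979) and Itprip (0.978), and Nfkbiz to Ppp1r15a (0.952), Avil (0.949), Zfp36 (0.945), Dusp1 (0.938) and Ttll3 (0.922). Several of these, such as Ier2, Egr2, Egr3, Junb and Dusp1, are immediate-early genes of the serum response. Among the members themselves, r was 0.958 for Relb with Nfkbie, 0.929 for Tnfaip3 with Nfkbia, 0.903 for Relb with Nfkb2 and 0.895 for Nfkbiz with Nfkbia, but 0.0203 for Nfkb2 with Nfkbiz. All of these values share the same 6 arrays and describe them only.

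**Figure D4:**
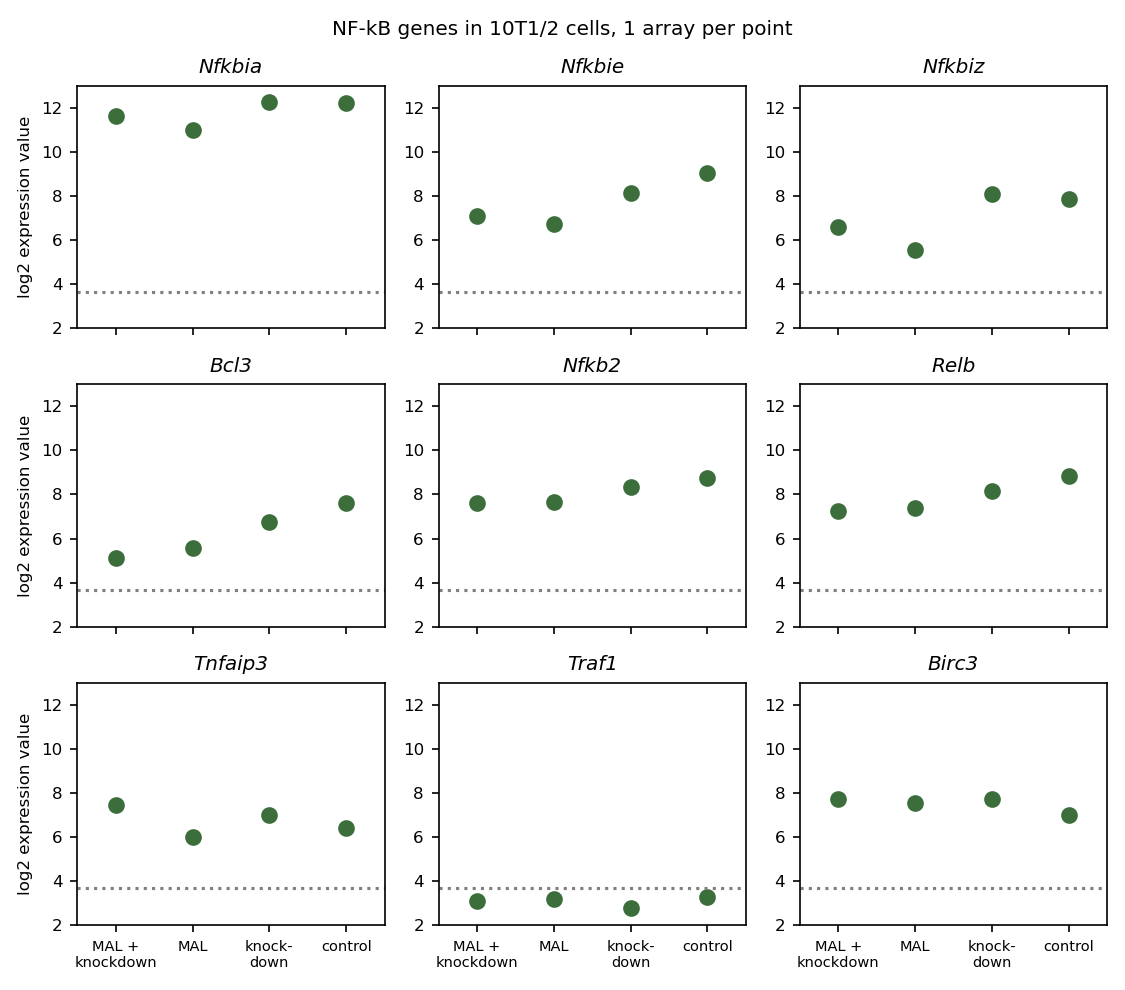
Log2 expression value (vertical axis) of the 9 member genes in 10T1/2 cells with MAL and Med23 knockdown, with MAL alone, with the knockdown alone and in the control (horizontal axis), 1 array per point and the dotted line at the mean of the array medians. Nfkbia, Nfkbie, Nfkbiz, Bcl3, Nfkb2 and Relb were lower on both MAL arrays than on both arrays without MAL, and Traf1 was below the dotted line throughout.

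In 10T1/2 cells the arrays asked what MAL overexpression and Med23 knockdown, alone and together, go with. With MAL, 6 of 8 tested members were lower on both MAL arrays than on both arrays without it, where 21.1% of all tested genes were, but 0 of 8 passed the test. In this fit with limma 8 of 12440 genes passed, or 0.0643%, and 6 of 8 members had an unadjusted p under 0.05 and a lower level, against 13.7% of all tested genes. The members' median coefficient was -1.07, against -0.03 over all tested genes. The 6 were Nfkbia, Nfkbie, Nfkbiz, Bcl3, Nfkb2 and Relb, while Tnfaip3 and Birc3 were not among them.

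On the probe set used for each gene, the 2 nuclear IkB genes stood furthest down. The other probe sets of Nfkbiz had smaller MAL coefficients, -1.45 for 1448728_a_at and -0.44 for 1457404_at, and the second of Nfkbie, 1431843_a_at, had -1.74. Nfkbiz read 6.58 with both treatments and 5.54 with MAL alone, against 8.11 with the knockdown alone and 7.87 in the control, a coefficient of -1.93 (SE 0.26, n = 2 pairs, 3.81-fold, adjusted p = 0.0665). Bcl3 read 5.12 with both and 5.56 with MAL, against 6.73 with the knockdown and 7.60 in the control, a coefficient of -1.82 (SE 0.21, 3.54-fold, adjusted p = 0.0651). Nfkbie read 7.12 with both and 6.74 with MAL, against 8.14 with the knockdown and 9.04 in the control, a coefficient of -1.66 (SE 0.34, 3.16-fold, adjusted p = 0.0791). These 3 members were lower by at least 1 in both pairs, as were 1.94% of all tested genes.

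Relb read 7.27 with both treatments and 7.38 with MAL alone, against 8.18 with the knockdown and 8.84 in the control (coefficient -1.19, SE 0.22, adjusted p = 0.0737). Nfkb2 read 7.60 and 7.67, against 8.35 and 8.77 (-0.93, SE 0.2, adjusted p = 0.0834), and Nfkbia read 11.62 and 11.00, against 12.29 and 12.23 (-0.95, SE 0.22, adjusted p = 0.0904), on the arrays in the same order. In each of these the MAL arrays and the others did not overlap. Tnfaip3 read 7.45 with both and 6.01 with MAL, against 6.99 with the knockdown and 6.40 in the control, and Birc3 read 7.74 and 7.55, against 7.72 and 6.98. Their MAL coefficients were 0.03 (SE 0.27, adjusted p = 0.952) and 0.29 (SE 0.22, adjusted p = 0.432). Traf1 read 3.11, 3.18, 2.77 and 3.26 and was not tested.

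The outcome of this test changed with the setting. The fit leaves 1 residual degree of freedom, so that a count of 0 in it does not show that no gene changed. The 6 members passed as lower with quantile normalization, with a trended robust prior and in 1 fit over all 10 arrays, where 2014, 953 and 2236 genes passed, and 4 passed with the mean of the probe sets of a gene, where 587 did. The cause of these differences was not tested.

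For the Med23 knockdown in 10T1/2 cells 0 of 8 members and 0 of 12440 genes (0.0%) passed in limma, and 2 of 8 members had an unadjusted p under 0.05, against 31.9% of all tested genes. These were Tnfaip3, with a coefficient of 1.01 (SE 0.27, 2.02-fold, adjusted p = 0.0954), and Bcl3, with -0.65 (SE 0.21, 1.57-fold, adjusted p = 0.118). Bcl3 and Tnfaip3 both passed with quantile normalization, where 2472 genes did. Tnfaip3 was higher on both knockdown arrays than on both arrays without it on probe set 1433699_at, but 1450829_at read 3.73 with both treatments and 3.69 with the knockdown, against 3.78 with MAL and 3.82 in the control, close to the array medians. The other coefficients ran from -0.39 for Relb to 0.64 for Nfkbiz. None of the listed pathway genes passed for MAL or for the knockdown in this fit. The 22 tested target genes had a median coefficient of -0.60 with MAL and -0.18 with the knockdown. As for all genes, the calls in the lists changed with the setting. With quantile normalization 7 of the 22 target genes fell and 1 rose with MAL, and 4 rose and 1 fell with the knockdown.

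The difference that went with MAL was smaller in knockdown cells than in cells without the knockdown for each of the 6 members, as values with no test. The 6 were grouped by their low levels on the MAL arrays, and the share of all tested genes that did the same was not counted. MAL minus no MAL was -1.53 with the knockdown and -2.33 without it for Nfkbiz, -1.02 and -2.30 for Nfkbie, -0.67 and -1.23 for Nfkbia, and -1.61 and -2.04 for Bcl3. The departure from additivity was 1.28 for Nfkbie, the 1 member of 8 that reached 1 in size, as did 7.18% of all tested genes. Its median was 0.55 over all 9 members and -0.09 over all tested genes.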

How the data were processed

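Biotin-labelled RNA of 10 cultures was hybridised to Affymetrix mouse arrays, per the labels' protocols, and groups came from the sample labels. The authors deposited log2 expression values, 1 for each probe set and array. RMA and MAS5 are named per the submitters' processing notes, without roles or versions, and it is not stated whether the MEF and 10T1/2 arrays were normalized jointly. Precision is limited by the number of arrays.

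Symbols came from the platform annotation, updated by Entrez identifier to the RefSeq table of GRCm38.p6 (34741 of the 34945 probe sets with 1 symbol). Another 932 probe sets had several symbols, 9160 were unnamed and 64 were controls. For each gene the probe set of highest mean value was used, and a gene was tested where its top value exceeded the overall median, 3.90 in MEFs (11933 genes) and 3.67 in 10T1/2 cells (12440 genes). limma 3.58.1 in R 4.3.3 (lmFit, eBayes) fitted genotype plus serum time in MEFs (2 residual degrees of freedom, 4.18 prior) and MAL plus knockdown in 10T1/2 cells (1 residual, 3.83 prior). A coefficient is the log2 difference from these additive fits, whose residual holds noise and interaction and does not cover the spread between replicate cultures. p-values were two-sided and Benjamini-Hochberg adjusted over all genes tested, with a threshold of 0.05. The fitting step was tested on simulated data, in which the MEF fit recovered changed genes and the 10T1/2 fit failed to call them. Folds given as at least so many had levels below the array median raised to it, a setting chosen after seeing the data.

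Every probe set of the members could be named. At most 4 genes per pathway list and comparison were named, those past the threshold with the largest coefficients, and the 5 genes most similar to Nfkbia, Tnfaip3 and Nfkbiz. The members and lists were chosen with earlier results of these data known. The lists covered receptors and adaptors, kinases, other Rel and IkB genes, feedback regulators, target genes, and fibroblast, macrophage, endothelial, epithelial and lymphocyte markers. Motifs were searched on both strands of RefSeq promoter windows. Alternatives were quantile normalization, other filters and probe-set rules, a trended robust prior, 1 fit over all arrays, no time term, and leaving out each serum time.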

Additional observations from a re-analysis of the deposited data

Results flagged for a closer look

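The results below are listed because arrays of 1 setting moved one way and arrays of the other the opposite way, at whatever size. Some of the steps were small, such as 0.10 for Tnfaip3 in KO MEFs and 0.06 for Nfkbia with the knockdown alone. The share of all tested genes with such opposite directions was not counted. Each result rests on 1 array per condition, and the difference was not tested in any of them. Tnfaip3 was lower in KO than in WT MEFs on all 3 pairs of MEF arrays and higher with the knockdown on both pairs of 10T1/2 arrays. The mean differences were apart by -2.56, while 1450829_at was lower on all 5 pairs. On the probe set used for Nfkbia the same difference between MEFs and 10T1/2 cells was -0.97. Its other probe sets did not share the opposite directions, since 3 of the 5 were higher in KO MEFs at 30 min. Its probe set 1448306_at stood at -0.06 with the knockdown alone. Between 30 and 90 min of serum Tnfaip3 went up by 0.10 in KO MEFs and down by 1.0 in WT MEFs, a difference of 1.10, while its second probe set, 1450829_at, went down in both, by 0.15 in KO MEFs and 1.14 in WT MEFs. Birc3 went up by 0.96 in KO MEFs and down by 0.46 in WT MEFs over the same time, a difference of 1.42. Birc3 was higher in KO than in WT MEFs by 0.90 at 90 min but lower at 0 and 30 min, a difference of 1.27 from the mean of those times. For Nfkbiz, 90 min minus 0 min was 0.75 in KO MEFs and -0.20 in WT MEFs, a difference of 0.95, while its probe set 1457404_at was higher at 90 min in both, by 0.79 and 0.51. In 10T1/2 cells the knockdown effect on Nfkbie was 0.38 with MAL and -0.90 without it, a difference of 1.28. The MAL effect on Tnfaip3 was 0.46 with the knockdown and -0.39 without it, a difference of 0.85, against 0.04 and -0.04 on 1450829_at.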

How the results depend on the processing

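No paired analysis was possible because each group has 1 array, so that there are no replicate numbers to block on, and the pairing by serum time is already a term of the MEF fit. In KO MEFs 5018 genes and 7 members passed. Leaving out a serum time gave 2680 genes and 4 members without 0 min, 2398 and 1 without 30 min, and 4 members without 90 min. With no term for serum time 2857 genes and 0 members passed, and with every probe set on its own 8380 probe sets did. At 30 min of serum 30 genes and 1 member passed, against 13 and 0 with the mean of the probe sets of a gene, 0 members with no filter on low values, 46 with every probe set, 47 with a trended robust prior, 58 and 2 in 1 fit over all 10 arrays, and 10 and 0 without the 90 min arrays. At 90 min 1612 genes and 5 members passed, against 18 and 0 without the 30 min arrays. For MAL 8 genes and 0 members passed, against 2014 and 6 with quantile normalization, 587 and 4 with the mean of probe sets, 953 and 6 with the trended prior, 2236 and 6 in 1 fit, 0 genes with no filter or with every probe set, and 4 with every array above its median. For the knockdown 0 genes and 0 members passed, against 2472 and 2 with quantile normalization, and 340, 1187 and 2658 genes with the mean of probe sets, the trended prior and 1 fit. Fewer arrays or residual degrees of freedom leave less to estimate the spread, and for the other settings the cause was not tested. On the probe set used for a gene or the mean of its probe sets, the direction of each named gene held except for Birc3 and Nfkbiz. Birc3 in KO MEFs had 0.06 as reported, -0.13 with the mean of its probe sets and -0.36 without the 90 min arrays. Nfkbiz at 90 min of serum had 0.27 as reported and -0.20 on the WT arrays alone. Other probe sets could differ in direction, as 1457404_at of Nfkbiz did in KO MEFs (0.75, against -0.43). With the knockdown, 1450829_at of Tnfaip3 had -0.09, against 1.01, and 1429128_x_at of Nfkb2 had 0.04, against -0.25. Leaving out a 10T1/2 array leaves no residual degree of freedom and was not run. No call of detection above background was given, so levels under the array median are open.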

Other observations

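The 10T1/2 control and WT MEFs without serum differed in their levels of the members, as values of 1 array each. The serum state of the 10T1/2 cells and a shared normalization are not given. Bcl3 read 7.60 in the 10T1/2 control and 5.48 in WT MEFs, Relb 8.84 and 7.34, Nfkbia 12.23 and 10.78, Nfkb2 8.77 and 7.73, and Nfkbie 9.04 and 8.14. Lower in the 10T1/2 control were Tnfaip3 at 6.40, against 8.32 in WT MEFs, Nfkbiz at 7.87 and 8.96, and Birc3 at 6.98 and 7.55, and Traf1 was below the array median in the 10T1/2 control and at 4.52 in WT MEFs. The median of 10T1/2 control minus WT MEFs was 0.90 over the 9 members and 0.10 over all tested genes.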
